A study of Mus musculus with 6 samples.

Results

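The proteasome genes were followed across splenic CD11b+Gr-1high cells on 6 Illumina MouseWG-6 v2 arrays. The paper regards such cells as granulocytic myeloid-derived suppressor cells in tumor-bearing mice and as granulocytic-like ones after G-CSF. In its assays CD11b+Gr-1+ cells of control mice did not significantly suppress T cell proliferation. Every probe whose annotated gene symbol begins with Psma, Psmb, Psmc, Psmd, Psme, Psmf or Psmg was taken, which gave 86 probes of 49 genes, out of 34885 probes with a single gene and 19057 genes. The 3 groups, with 2 arrays each, were all female BALB/c mice. The 4T1-TB mice bore 4T1, a BALB/c mammary carcinoma line implanted in the mammary gland. The G-CSF mice were given recombinant G-CSF protein, and the WT mice were controls without a tumor. No group carried a transgene or a deleted gene. The labels give no age, while the study's methods give an age range for its mice in general. The study sorted the cells by flow cytometry in 2 independent experiments, and how many mice entered each sort is not given in the sources used here, so that p-values measure the spread between these preparations.

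The proteasome is the main protease of the cytosol and nucleus. Its 20S core is a barrel of alpha and beta rings in which 3 beta subunits cut proteins, encoded by Psmb5, Psmb6 and Psmb7, and its 19S cap binds ubiquitin chains and threads the substrate in with a ring of ATPases. In blood cells and under interferon, Psmb8, Psmb9 and Psmb10 replace Psmb5, Psmb6 and Psmb7 in newly built particles, giving the immunoproteasome, which is known for trimming peptides for MHC class I. Dedicated chaperones build core and cap, and caps such as PA28 open the core without ATP. Of the 49 genes, 47 encode subunits, activators or chaperones of the proteasome. Psmc3ip, a meiotic recombination factor, and Psme3ip1, a partner of the nuclear activator Psme3, fall under the rule by symbol only.

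Detection on an array meant a detection p-value under 0.05, and a detected probe was one that met this on 2 or more of the 6 arrays. By this measure 53 of the 86 probes and 36 of the 49 genes were detected, and 24 genes were detected on all 6 arrays. Psmd5 was detected on 1 array and 12 genes on none, among them the subunit genes Psma1, Psma3, Psma6, Psmc6, Psmd2, Psmd3 and Psmd8. A probe below background does not show that its gene was silent. Each gene is described by its probe with the highest mean level, and values are log2 normalized intensities, replicate 1 before replicate 2. Between 40 and 48 member probes were detected per array.

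The arrays themselves differed between the groups. The 95th percentile of the deposited intensity was 500.1 and 336.1 in 4T1-TB and 542.7 and 401.8 in G-CSF, against 247.3 and 207.2 in WT. The authors' quantile normalization sets these distributions equal, and the effect of this difference on the comparisons with WT cannot be told apart from that of the groups. Of the neutrophil markers 9 to 10 of 12 were detected on each array, with S100a8 and S100a9 on all 6. Of these 12 markers Csf3r, Ngp and Itgam fell and Ltf rose in 4T1-TB, and Csf3r, S100a8 and Itgam fell in G-CSF. Csf3r, which encodes the G-CSF receptor, changed by -3.52 in 4T1-TB and -2.83 in G-CSF (adjusted p = 0.0133 and 0.0296). Itgam, which encodes CD11b, was detected on the WT arrays only. The summed level of 4 erythroid markers ran from 508 to 22270 in 4T1-TB and from 918 to 6710 in G-CSF, against 1389 to 1624 in WT, and the high values came from Hba-a1 and Alas2 on replicate 1 of 4T1-TB and of G-CSF. The summed level of 4 T cell markers was 1733 to 2571 in 4T1-TB and 1713 to 2054 in G-CSF, against 986 to 1189 in WT. It came mainly from Cd3d, which changed by 1.22 in 4T1-TB (adjusted p = 0.0678) and 0.98 in G-CSF (adjusted p = 0.147), while Cd3e and Cd3g were detected on 2 arrays and Cd5 on 0. The part of these markers in the member differences was not tested.

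More member genes rose than fell in both comparisons with WT. In cells of 4T1-TB mice 12 member genes rose and 2 fell against WT at a limma adjusted p under 0.05 over all probes. Of all 19057 genes 5.41% rose and 3.17% fell in that comparison. In cells of G-CSF-treated mice 10 member genes rose and 3 fell against WT, where 4.12% of all genes rose and 2.85% fell. These counts take the brightest probe of each gene. Over the 53 detected member probes 14 rose and 6 fell in 4T1-TB, and 11 rose and 6 fell in G-CSF. Of all 45281 probes 2486 were called in either direction in 4T1-TB and 2053 in G-CSF. Among detected genes the member shares were 33.3% higher and 5.56% lower in 4T1-TB, beside 14% and 8.22% of all detected genes, and 27.8% higher and 8.33% lower in G-CSF, beside 10.7% and 7.39%. Over the 36 detected members the median log2 change was 0.54 in 4T1-TB and 0.39 in G-CSF, beside 0.11 over all 7344 detected genes in each comparison. Both comparisons use the same WT arrays, so that their values are set side by side here and are not independent of each other.

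By the criterion of the study's methods, at least 2-fold with P under 0.01, 9 members were higher and 3 lower in 4T1-TB (all genes: 3.39% and 2.35%), and 8 were higher and 4 lower in G-CSF (2.61% and 2.02%). The calls for Psma5, Psmb8 and Psmd10 were kept in both comparisons whichever array was left out. All other member calls, 11 of 14 for 4T1-TB mice and 10 of 13 for G-CSF-treated mice, were lost without a WT array, which left 2 genes higher and 1 lower in either comparison without WT replicate 1 or without WT replicate 2. When arrays were centred on their medians and not quantile normalized, no member was called in either comparison, with adjusted p-values of 0.0823 and above in 4T1-TB and 0.0582 and above in G-CSF among the called genes. At an unadjusted limma p under 0.05 that setting placed 21 of the 36 detected members above WT for 4T1-TB mice and 3 below, and 19 above and 3 below for G-CSF-treated mice, beside 34.5% of all detected genes above and 7.34% below in 4T1-TB and 37.3% and 6.44% in G-CSF. The median change of the 36 was then 1.01 in 4T1-TB and 1.13 in G-CSF, beside 0.24 and 0.30 over all detected genes. Centring on medians leaves the upper part of the intensity distributions unequal between groups, which bears on bright probes more than on dim ones. The values over all detected genes were not matched for probe level, and its part in the member values was not tested. Across all 45281 probes that setting left 35 adjusted calls in 4T1-TB and 112 in G-CSF, beside 2486 and 2053, and it moved the median log2 change of detected probes to 0.17 and 0.21, beside 0.07 in each.

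**Figure D1:**
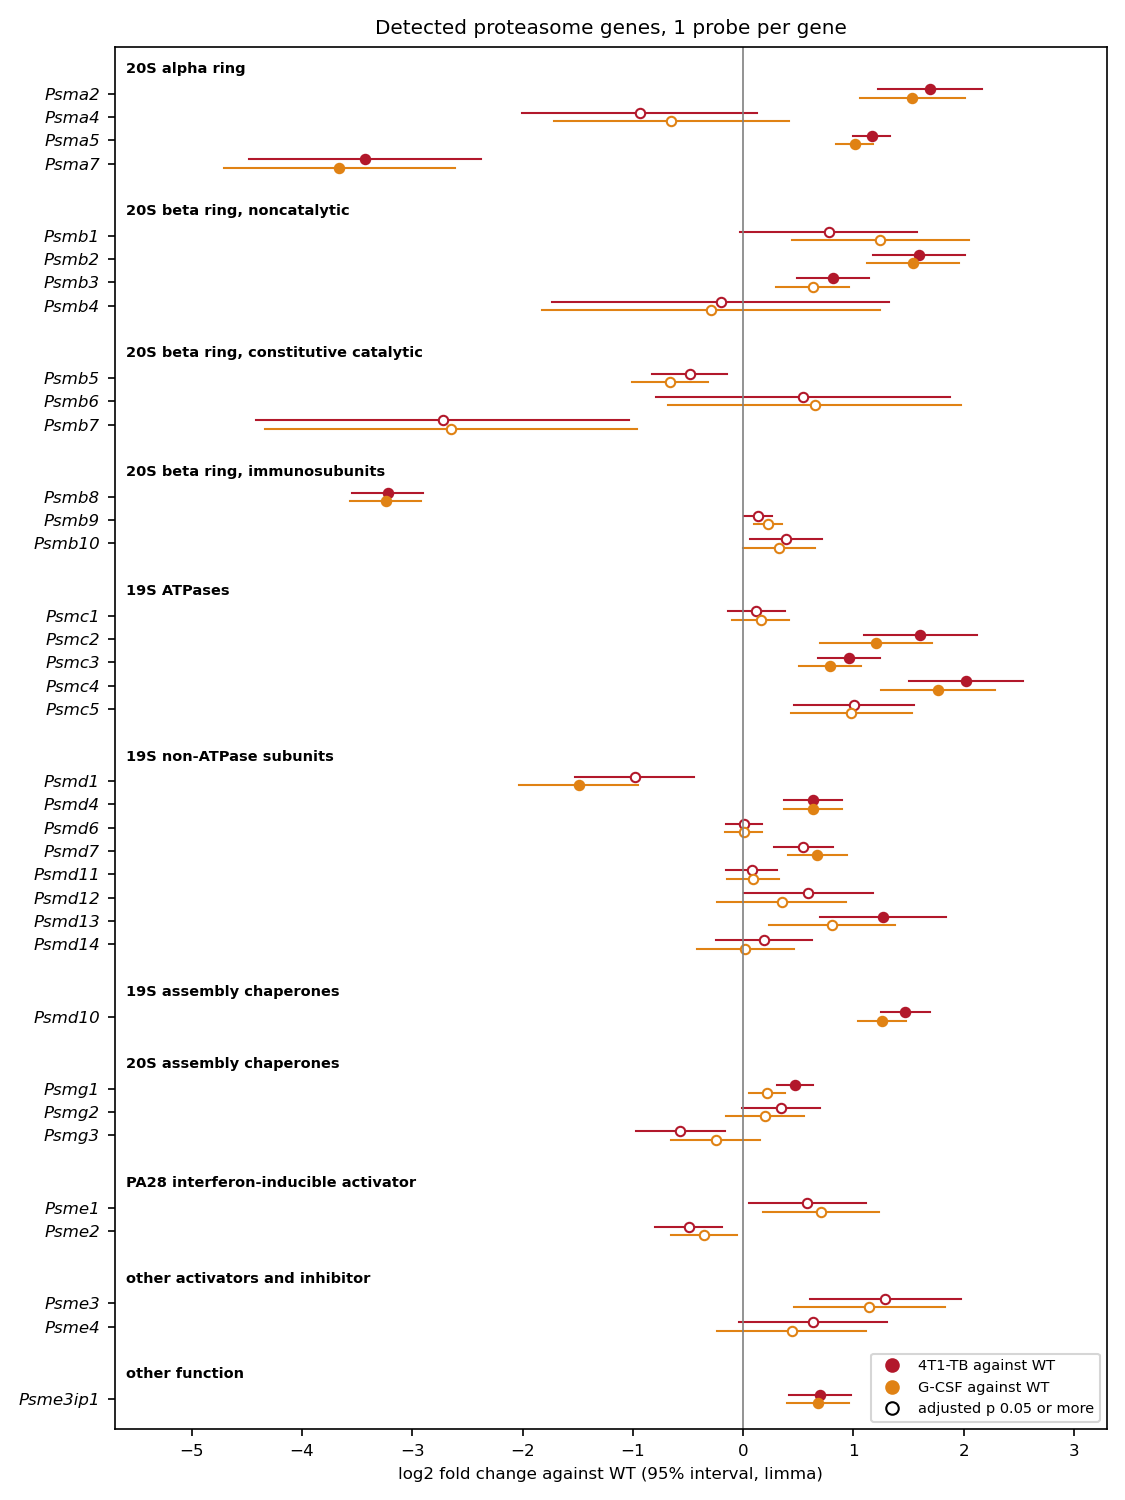
Log2 fold change against WT (x axis) of the 36 detected member genes (y axis, grouped by role), with the 95% interval of the limma model, for 4T1-TB (red, upper) and G-CSF (orange, lower). Filled points have an adjusted p under 0.05. Psma7 and Psmb8 lie more than 3 units below 0 in both comparisons, and Psmc4 has the highest values at 2.02 and 1.77. Values of genes not detected in a group are the measured ones and not bounds.

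Of the 3 immunosubunits only Psmb8 was called against WT. Psmb8, whose product beta5i takes the place of the chymotrypsin-like subunit, had values of 6.98 and 7.01 in 4T1-TB, 6.91 and 7.04 in G-CSF and 10.40 and 10.03 in WT. Its probe was not detected on either 4T1-TB array and on 1 G-CSF array, so that both arrays detected it in WT only. Psmb8 fell at least 9.0-fold in 4T1-TB (adjusted p = 5.8e-04) and 9.44-fold in G-CSF (log2 fold change -3.24 ± 0.13, SE; adjusted p = 5.9e-04). These calls were kept under neqc background correction, with adjusted p of 0.0014 in each comparison. With median centring both were lost (adjusted p = 0.0969 in 4T1-TB and 0.0767 in G-CSF).

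A second Psmb8 probe, detected on 4 arrays, showed a smaller difference, with 6.83 and 7.06 in 4T1-TB, 6.99 and 7.20 in G-CSF and 7.52 and 7.52 in WT. It fell by 0.57 in 4T1-TB (adjusted p = 0.0417), and its change of -0.43 in G-CSF did not pass (adjusted p = 0.121). Both probes thus placed the WT arrays above the other 4, at very different sizes. In bulk samples a lower share of cells that carry a transcript and less RNA per cell cannot be told apart. Of the macrophage markers C1qb, C1qc and Vcam1 also fell in both comparisons, and the summed level of the 6 macrophage markers was 709 to 774 in 4T1-TB and 809 to 854 in G-CSF, against 1250 to 1327 in WT. Their part in the Psmb8 difference was not tested.

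Psmb9, which encodes beta1i and lies beside Psmb8 and Tap1 in the MHC class II region, stayed at the edge of detection. Its values were 7.01 and 6.98 in 4T1-TB, 7.11 and 7.06 in G-CSF and 6.85 and 6.86 in WT, and it was detected only on the G-CSF arrays. The G-CSF arrays lay highest, at least 1.01-fold above WT (adjusted p = 0.0895), and no fold is given for 4T1-TB because neither group was above background. Psmb10, which encodes beta2i, was detected on all 6 arrays, with 8.49 and 8.85 in 4T1-TB, 8.68 and 8.53 in G-CSF and 8.22 and 8.35 in WT. All 4 values of the treated and tumor-bearing mice lay above WT, by 0.39 in 4T1-TB (95% interval 0.06 to 0.71, adjusted p = 0.246) and 0.32 in G-CSF (-0.0040 to 0.65, adjusted p = 0.380), and a second probe gave 0.55 and 0.36.

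None of the constitutive catalytic genes passed the test. Psmb5, the chymotrypsin-like subunit that Psmb8 replaces, had 6.92 and 7.07 in 4T1-TB, 6.68 and 6.97 in G-CSF and 7.34 and 7.63 in WT. WT lay above both other groups, the difference being -0.49 in 4T1-TB (adjusted p = 0.156) and at least 1.37-fold in G-CSF, where neither array detected it (adjusted p = 0.0695). Psmb6, the caspase-like subunit, had 8.17 and 8.19 in 4T1-TB, 7.40 and 9.17 in G-CSF and 7.56 and 7.71 in WT. The G-CSF replicates lay on either side of WT, and the differences of 0.54 in 4T1-TB and 0.65 in G-CSF did not pass (adjusted p = 0.793 and 0.735).

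Psmb7, the trypsin-like subunit, had 7.38 and 8.65 in 4T1-TB, 7.16 and 9.02 in G-CSF and 10.71 and 10.77 in WT. The WT arrays lay apart, but the replicates of the other groups differed so much that the changes of -2.73 (95% interval -4.41 to -1.04, adjusted p = 0.105) and -2.65 (-4.33 to -0.96, adjusted p = 0.130) missed the threshold. The 3 other detected Psmb7 probes went different ways, with 0.88, 0.55 and -1.32 in 4T1-TB and 0.86, 0.24 and -0.91 in G-CSF. The first of them rose in both comparisons (adjusted p = 0.0073 and 0.0080), so no direction holds for Psmb7 as a gene.

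**Figure D2:**
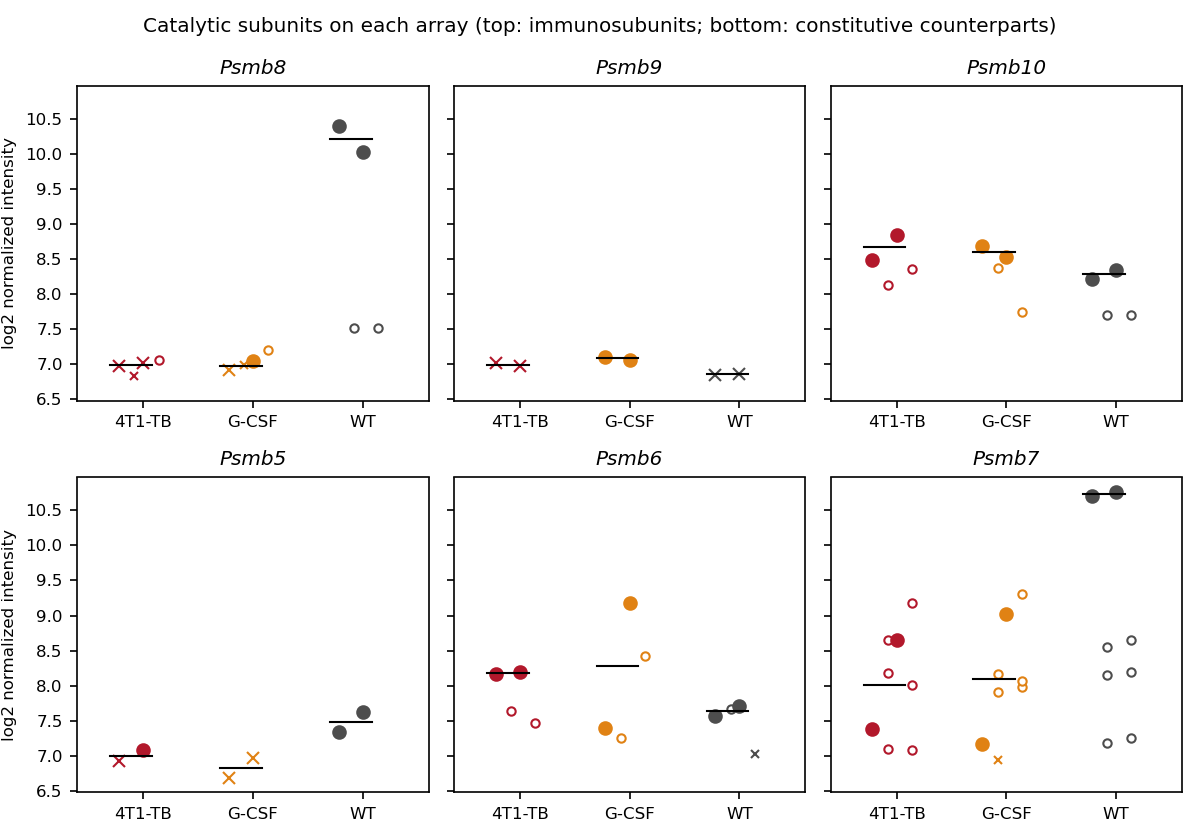
Log2 normalized intensity (y axis) of the immunosubunit genes (top) and their constitutive counterparts (bottom) on each array, by group (x axis: 4T1-TB, G-CSF, WT). Filled points and bars show the probe with the highest mean level and its group mean, small open points the gene's other detected probes, and crosses arrays on which a probe was not detected. The brightest Psmb8 probe reads 10.40 and 10.03 in WT and at most 7.04 elsewhere, while the brightest Psmb10 probe lies between 8.22 and 8.85 throughout.

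Within an array, the catalytic pairs were read as the level of the immunosubunit minus that of its counterpart, from the brightest probe of each gene. The log2 difference of Psmb8 minus Psmb5 was 0.05 and -0.06 in 4T1-TB, 0.23 and 0.07 in G-CSF and 3.06 and 2.40 in WT. Its change was -2.74 in 4T1-TB and -2.58 in G-CSF, with no overlap with WT. Psmb8 was not detected on both 4T1-TB arrays and 1 G-CSF array, and Psmb5 on 1 4T1-TB array and both G-CSF arrays, so that outside WT these are differences between values at background.

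Psmb10 minus Psmb7 was 1.12 and 0.20 in 4T1-TB, 1.52 and -0.49 in G-CSF and -2.49 and -2.42 in WT, higher by 3.11 and 2.97 without overlap. With the Psmb7 probe that rose in its place, a choice made after seeing the data, the pair was 0.31 and 0.84 in 4T1-TB, 0.52 and 0.56 in G-CSF and 1.04 and 1.101 in WT. The change was then -0.49 and -0.53, so no direction holds for this pair. For Psmb9 minus Psmb6 the values were -1.16 and -1.22 in 4T1-TB, -0.30 and -2.11 in G-CSF and -0.71 and -0.85 in WT, differing by -0.41 in 4T1-TB and, with overlap, by -0.42 in G-CSF. Psmb9 was not detected on any 4T1-TB or WT array, so that these differences rest on a value at background. Without G-CSF replicate 2 that change was 0.48, and without G-CSF replicate 1 it was -1.33. The exact two-sided permutation test gave p = 0.333 for each pair without overlap, the smallest p that 2 against 2 arrays allow, and p = 1 for Psmb9 minus Psmb6 in G-CSF. With the mean of all detected probes of a gene the first pair moved to -1.41 and -1.17 and the second to 1.12 and 0.96.

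**Figure D3:**
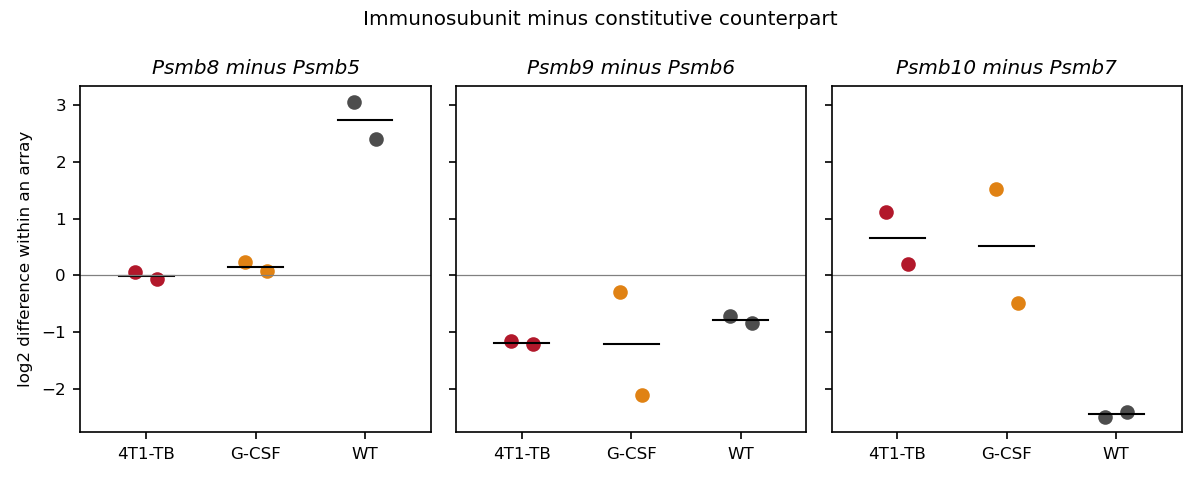
Log2 level of each immunosubunit minus that of its constitutive counterpart on the same array (y axis), from the brightest probe of each gene, by group (x axis: 4T1-TB, G-CSF, WT). Points are arrays and bars are group means. Psmb8 minus Psmb5 is highest in WT at 3.06 and 2.40, and Psmb10 minus Psmb7 is lowest there at -2.49 and -2.42.

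The promoters of Psmb8, the immunosubunit gene that fell, and of its counterpart Psmb5 are shown with those of Psma5 and Psmd10, the 2 members whose rise was kept without any single array. Each is the 250 bases before the start of the gene, read 5′ to 3′ on the gene's strand from RefSeq (GRCm38.p6), and capitals mark a match to one of 3 motifs searched on both strands. These were TGACNNNGC, the core of the antioxidant response element bound by Nrf1 and Nrf2 with small Maf proteins, TTCNNNGAA, the spaced palindrome bound by STAT proteins, and GAAANNGAA, a core bound by interferon regulatory factors.
Psmb8, chr17:34197945-34198194, plus strand: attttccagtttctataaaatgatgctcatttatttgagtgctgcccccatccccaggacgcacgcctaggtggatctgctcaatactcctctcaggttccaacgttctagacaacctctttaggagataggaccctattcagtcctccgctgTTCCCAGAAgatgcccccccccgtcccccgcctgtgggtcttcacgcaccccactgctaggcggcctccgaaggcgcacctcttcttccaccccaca
Psmb5, chr14:54617996-54618245, minus strand: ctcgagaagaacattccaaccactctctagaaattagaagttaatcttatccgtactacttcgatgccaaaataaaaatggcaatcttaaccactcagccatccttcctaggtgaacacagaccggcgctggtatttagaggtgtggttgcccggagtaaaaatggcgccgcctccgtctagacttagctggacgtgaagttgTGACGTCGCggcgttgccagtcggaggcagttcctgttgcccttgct
Psma5, chr3:108256676-108256925, plus strand: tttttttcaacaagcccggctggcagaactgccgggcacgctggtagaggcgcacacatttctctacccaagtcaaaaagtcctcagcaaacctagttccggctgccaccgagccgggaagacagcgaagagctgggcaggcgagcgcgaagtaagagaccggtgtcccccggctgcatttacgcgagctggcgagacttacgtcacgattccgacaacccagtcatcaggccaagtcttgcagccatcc
Psmd10, chrX:140956712-140956961, minus strand: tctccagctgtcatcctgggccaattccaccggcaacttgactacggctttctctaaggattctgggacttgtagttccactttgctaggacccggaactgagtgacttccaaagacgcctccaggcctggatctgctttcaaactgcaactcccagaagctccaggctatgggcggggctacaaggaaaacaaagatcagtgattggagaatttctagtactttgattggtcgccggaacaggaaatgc
Psmb8 held 1 STAT match that begins 97 bases before the start, and Psmb5 held 1 antioxidant response element core that begins 47 bases before it. No match of the 3 motifs was found in the windows of Psma5 and Psmd10, or in those of Psmb9 and Psmb10.

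RefSeq windows of 300 bases, from 250 before to 50 after the start, were at hand for 41 of the 49 genes, 45 windows in all. The antioxidant response element core was in 6 of these (13.3%), those of Psmb5, Psmb6, Psmc6, Psmd12, Psmd9 and Psme4, beside 12.4% of 32851 windows of all genes. The STAT motif was in 3 (6.67%), those of Psmb8, Psmd2 and Psmg1, beside 8.3%, and the interferon regulatory factor core in 7 (15.6%) beside 8.56%. A match shows only that the letters are present.

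In the alpha ring, the gate of the core, 4 of 8 genes were detected, of which 2 rose and 1 fell in each comparison. Of all detected genes 14% rose and 8.22% fell in 4T1-TB, and 10.7% rose and 7.39% fell in G-CSF. Psma5, which encodes alpha5, had 9.93 and 9.86 in 4T1-TB, 9.80 and 9.69 in G-CSF and 8.77 and 8.69 in WT. It rose 2.25-fold in 4T1-TB (log2 fold change 1.17 ± 0.07, adjusted p = 0.0012) and 2.02-fold in G-CSF (1.01 ± 0.07, adjusted p = 0.0018), with no overlap with WT. Psma2, which encodes alpha2, had 12.22 and 12.05 in 4T1-TB, 12.26 and 11.68 in G-CSF and 10.37 and 10.51 in WT. It rose 3.24-fold (adjusted p = 0.0087) and 2.89-fold (adjusted p = 0.0125), calls that were lost without WT replicate 1 (adjusted p = 0.0888 and 0.116), without WT replicate 2 (0.0771 and 0.0993) and, in 4T1-TB, without replicate 1 or 2 of that group (0.0834 and 0.0634).

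Psma7, which encodes alpha4, had 7.29 and 8.48 in 4T1-TB, 7.31 and 8.0 in G-CSF and 11.44 and 11.19 in WT. It fell 10.8-fold in 4T1-TB (log2 fold change -3.43 ± 0.42, adjusted p = 0.0115) and 12.6-fold in G-CSF (-3.66 ± 0.42, adjusted p = 0.0096). A second probe fell too, with 7.13 and 7.55, 7.09 and 7.60, and 9.67 and 9.83 in the same order of groups (log2 fold change -2.41 and -2.40, adjusted p = 0.0039 and 0.0042). The calls of the first probe were lost without WT replicate 1 (adjusted p = 0.109 in 4T1-TB and 0.0975 in G-CSF) and without WT replicate 2 (0.0971 and 0.0882), and with neqc (0.0833 and 0.0751). Psma4, which encodes alpha3, had 7.91 and 7.36 in 4T1-TB, 7.27 and 8.58 in G-CSF and 8.53 and 8.61 in WT, and its differences of -0.94 and -0.65 did not pass (adjusted p = 0.435 and 0.649).

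The 4 noncatalytic beta genes were all detected. Psmb2, which encodes beta4, had 10.69 and 10.95 in 4T1-TB, 10.95 and 10.56 in G-CSF and 9.09 and 9.34 in WT. It rose 3.03-fold (adjusted p = 0.0071) and 2.91-fold (adjusted p = 0.0080), but a second probe of nearly the same mean level showed 10.30 and 10.50 in 4T1-TB, 9.02 and 10.05 in G-CSF and 10.84 and 10.80 in WT, with changes of -0.42 and -1.29 that did not pass (adjusted p = 0.703 and 0.117). The 2 probes therefore differed in sign. The calls of the first were lost without WT replicate 1 (adjusted p = 0.0709 and 0.0777), without WT replicate 2 (0.0511 and 0.0572) and, in 4T1-TB, without replicate 2 of that group (0.0606).

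Psmb3, which encodes beta3, had 10.01 and 10.38 in 4T1-TB, 10.04 and 9.97 in G-CSF and 9.30 and 9.45 in WT. It rose by 0.82 in 4T1-TB (adjusted p = 0.0269, and 0.183 and 0.134 without WT replicate 1 and 2 and 0.0729 without 4T1-TB replicate 2), and its change of 0.63 in G-CSF missed the threshold (adjusted p = 0.0705). Psmb1, which encodes beta6, lay above WT on all 4 arrays, with 9.10 and 10.10 in 4T1-TB, 10.21 and 9.92 in G-CSF and 8.69 and 8.96 in WT, and passed the 2-fold criterion in G-CSF (log2 fold change 1.24) without passing the adjusted test (adjusted p = 0.372 in 4T1-TB and 0.135 in G-CSF). For Psmb4, which encodes beta7, the G-CSF replicates were 8.74 and 10.74, on either side of 9.65 and 10.005 in 4T1-TB and of 9.92 and 10.14 in WT.

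In the ATPase ring of the cap, the motor that unfolds substrates, 3 of 6 genes rose and 0 fell in each comparison. These counts take the brightest probe of each gene, and of all genes 5.41% rose in 4T1-TB and 4.12% in G-CSF. Over the 5 detected ATPase genes the median log2 fold change was 1.0 in 4T1-TB and 0.98 in G-CSF. Both medians are the values of the brighter Psmc5 probe, which was not called, while another Psmc5 probe fell in both comparisons. Psmc4, which encodes Rpt3, had 9.87 and 9.74 in 4T1-TB, 9.88 and 9.22 in G-CSF and 7.79 and 7.77 in WT. It rose 4.06-fold (log2 fold change 2.02 ± 0.21, adjusted p = 0.0066) and 3.41-fold (1.77 ± 0.21, adjusted p = 0.0104), and all 4 arrays lay well above WT. Psmc2, which encodes Rpt1, had 10.86 and 10.90, 10.81 and 10.15, and 9.28 and 9.27 in 4T1-TB, G-CSF and WT and rose 3.05-fold (adjusted p = 0.0127) and 2.30-fold (adjusted p = 0.0358).

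Psmc3, which encodes Rpt5, had 8.23 and 7.99 in 4T1-TB, 7.83 and 8.04 in G-CSF and 7.20 and 7.10 in WT and rose 1.94-fold (adjusted p = 0.010) and 1.73-fold (adjusted p = 0.0203). The calls of all 3 ATPase genes were lost without WT replicate 1 (adjusted p of 0.0721 to 0.110 in 4T1-TB and 0.0965 to 0.208 in G-CSF) and without WT replicate 2 (0.0746 to 0.117 and 0.104 to 0.236). Without 4T1-TB replicate 1 they were lost in 4T1-TB (0.0643 to 0.103), without 4T1-TB replicate 2 for Psmc2 and Psmc4 (0.105 and 0.0560), and the G-CSF call of Psmc2 was lost without either 4T1-TB array (0.108).

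Psmc5, which encodes Rpt6, gave opposite readings. Its brighter probe had 8.29 and 7.78 in 4T1-TB, 8.26 and 7.77 in G-CSF and 7.01 and 7.05 in WT, where it was not detected, and was at least 1.95-fold higher in 4T1-TB and 1.92-fold higher in G-CSF (adjusted p = 0.0702 and 0.0858). The other probe had 6.88 and 7.40, 6.82 and 6.98, and 8.46 and 8.55 in the same groups and fell by 1.36 in 4T1-TB (adjusted p = 0.0125) and at least 2.78-fold in G-CSF (adjusted p = 0.0076). Psmc1, which encodes Rpt2, changed by 0.12 and 0.16 (95% intervals -0.14 to 0.38 and -0.10 to 0.42).

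Of the 11 non-ATPase subunit genes of the cap 8 were detected. Psmd4, which encodes the ubiquitin receptor Rpn10, had 11.38 and 11.48 in 4T1-TB, 11.57 and 11.29 in G-CSF and 10.86 and 10.73 in WT. It rose by 0.64 in 4T1-TB (adjusted p = 0.0304) and by 0.63 in G-CSF (adjusted p = 0.0342). Psmd13, which encodes Rpn9, had 10.62 and 11.02, 10.67 and 10.04, and 9.49 and 9.61 in 4T1-TB, G-CSF and WT and rose 2.41-fold in 4T1-TB (adjusted p = 0.0380), while its change of 0.81 in G-CSF did not pass (adjusted p = 0.173).

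Psmd7, which encodes Rpn8, the partner of the deubiquitinase Psmd14, had 7.93 and 7.82 in 4T1-TB, 8.12 and 7.89 in G-CSF and 7.23 and 7.43 in WT. It rose by 0.67 in G-CSF (adjusted p = 0.0289), and its 0.55 in 4T1-TB did not pass (adjusted p = 0.0509). A second Psmd7 probe, detected on the G-CSF arrays only, changed by 0.04 in 4T1-TB and 0.10 in G-CSF and was not called. The G-CSF call of Psmd7 was lost without WT replicate 1 or 2 (adjusted p = 0.171 and 0.0967) and without either 4T1-TB array (0.0818). The calls of Psmd4 and Psmd13 were lost without WT replicate 1 (0.136 and 0.229 in 4T1-TB, and 0.146 for Psmd4 in G-CSF), without WT replicate 2 (0.213 and 0.211, and 0.238), without 4T1-TB replicate 1 (0.151 and 0.119, and 0.0931) and without 4T1-TB replicate 2 (0.205 and 0.228, and 0.0931).

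Psmd1, which encodes the large scaffold Rpn2, went the other way. It had 9.87 and 10.39 in 4T1-TB, 9.86 and 9.39 in G-CSF and 11.06 and 11.17 in WT, and fell 2.81-fold in G-CSF (adjusted p = 0.0214, and 0.142 and 0.177 without WT replicate 1 and 2), with -0.98 in 4T1-TB (adjusted p = 0.0730). A second Psmd1 probe had 9.40 and 9.83, 9.09 and 8.995, and 11.65 and 11.65 and fell 4.11-fold in 4T1-TB (adjusted p = 0.0020) and 6.11-fold in G-CSF (adjusted p = 0.0011). With median centring the change of the first probe turned to 0.33 in 4T1-TB and 0.040 in G-CSF (adjusted p = 0.844 and 0.984). Its remaining probe, detected on 2 arrays, changed by 0.09 and 0.03.

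The remaining 4 detected genes of the group, Psmd6, Psmd11, Psmd12 and Psmd14, changed by 0.01, 0.08, 0.59 and 0.19 in 4T1-TB and by 0.01, 0.09, 0.35 and 0.02 in G-CSF, and none passed. The 95% interval of Psmd6 was -0.16 to 0.18 in 4T1-TB, that of Psmd11 -0.15 to 0.31 and that of Psmd14 -0.25 to 0.63, although Psmd6 and Psmd11 were detected on 2 arrays only.

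Among the chaperones Psmd10 stood out. Its product gankyrin holds the ATPase Rpt3, encoded by Psmc4, during assembly of the cap. Psmd10 had 9.75 and 9.73 in 4T1-TB, 9.58 and 9.49 in G-CSF and 8.38 and 8.16 in WT. It rose 2.77-fold in 4T1-TB (log2 fold change 1.47 ± 0.09, adjusted p = 0.0014) and 2.40-fold in G-CSF (1.26 ± 0.09, adjusted p = 0.0021), with the 4T1-TB values above the G-CSF values and both well above WT. A second Psmd10 probe gave 0.58 (adjusted p = 0.0150) and 0.26 (adjusted p = 0.197), and the last of them, not detected in 4T1-TB, lay at least 1.41-fold below WT there (adjusted p = 0.0929) and changed by -0.38 in G-CSF (adjusted p = 0.345). Psmd5 and Psmd9, the other cap chaperones of the list, were not detected in the data.

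Psmg1, which encodes PAC1, a chaperone that starts the alpha ring, had 7.35 and 7.32 in 4T1-TB, 7.14 and 7.02 in G-CSF and 6.90 and 6.83 in WT, where it was not detected. It rose at least 1.20-fold in 4T1-TB (adjusted p = 0.0157, and 0.0919, 0.126, 0.126 and 0.106 without WT replicate 1, WT replicate 2, 4T1-TB replicate 1 and 4T1-TB replicate 2), and lay at least 1.01-fold above WT in G-CSF (adjusted p = 0.190). Psmg3, which encodes PAC3, had 6.99 and 6.92 in 4T1-TB, where it was not detected, 7.04 and 7.52 in G-CSF and 7.61 and 7.44 in WT, or at least 1.40-fold below WT in 4T1-TB (adjusted p = 0.157).

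The activators did not pass the adjusted test. Psme1 and Psme2 encode the interferon-inducible PA28 ring, and their readings ran in opposite directions. Psme1 had 9.63 and 10.07 in 4T1-TB, 10.24 and 9.71 in G-CSF and 9.27 and 9.26 in WT, higher by 0.58 and 0.71 (adjusted p = 0.286 and 0.196), and a second Psme1 probe changed by 0.09 and 0.30. Psme2 had 6.75 and 6.83 in 4T1-TB, where it was not detected, 6.78 and 7.08 in G-CSF and 7.18 and 7.39 in WT, and lay at least 1.18-fold below WT in 4T1-TB (adjusted p = 0.0992), with a difference of -0.35 in G-CSF (adjusted p = 0.275). Psme3, the nuclear activator, had 9.43 and 9.10 in 4T1-TB, 9.54 and 8.70 in G-CSF and 7.98 and 7.97 in WT.

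All 4 arrays of Psme3 thus lay above WT, by 1.29 in 4T1-TB and 1.15 in G-CSF, which passed the 2-fold criterion but not the adjusted test (adjusted p = 0.0646 and 0.107). Psme4, which encodes the large single-chain activator PA200, changed by 0.63 and 0.44 (adjusted p = 0.390 and 0.619). Psme3ip1, outside the proteasome itself, had 7.96 and 8.13 in 4T1-TB, 8.13 and 7.92 in G-CSF and 7.46 and 7.24 in WT and rose by 0.70 and 0.68 (adjusted p = 0.0274 and 0.0334), while a second probe changed by 0.39 and 0.41 and was not called. Those calls were lost without WT replicate 1 (adjusted p = 0.0892 and 0.0968), WT replicate 2 (0.173 and 0.206), 4T1-TB replicate 1 (0.110 and 0.0770) and 4T1-TB replicate 2 (0.183 and 0.0770).

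Probes of the same gene often disagreed. Of the 13 members with 2 or more detected probes, the call differed between probes in 6 in 4T1-TB and in 8 in G-CSF. The sign of the change differed in 5 in each comparison, those of Psmb2, Psmb7, Psmc5, Psmd1 and Psmd10. Both probes of Psma7 fell in both comparisons. Which transcripts each probe reads is not given in the sources used here.

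**Figure D4:**
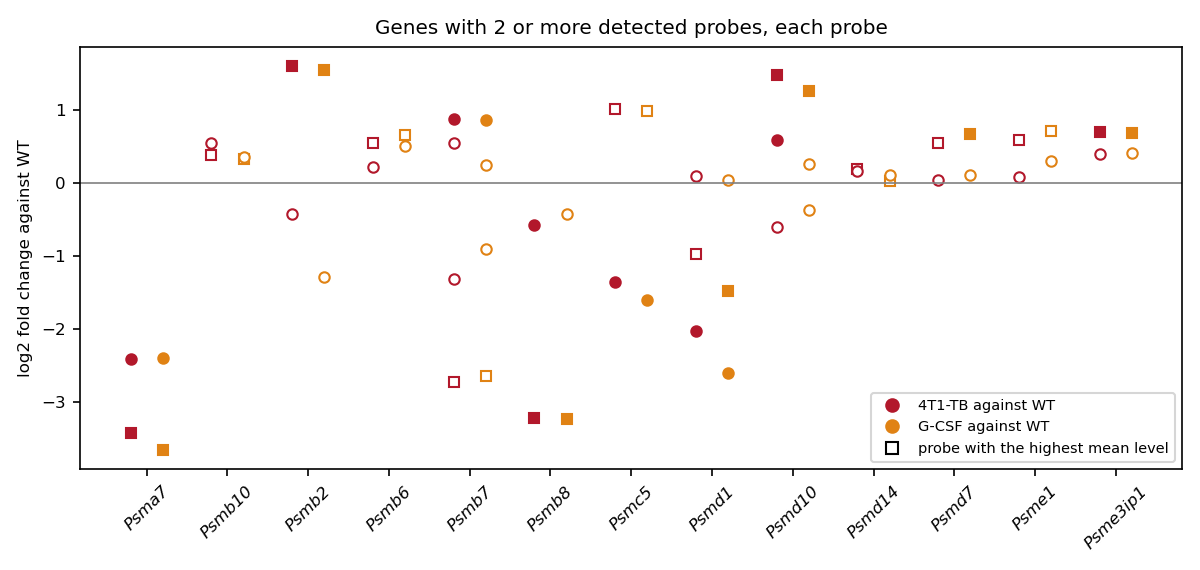
Log2 fold change against WT (y axis) of each detected probe of the 13 members with 2 or more of them (x axis), for 4T1-TB (red, left) and G-CSF (orange, right). Squares mark the probe with the highest mean level and filled symbols an adjusted p under 0.05. The probes of Psmb7 run from -2.73 to 0.88 in 4T1-TB, while both probes of Psma7 lie below -2.

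Between 4T1-TB and G-CSF no member was called. Of all 19057 genes 0% rose and 0% fell at an adjusted p under 0.05 in that comparison, and 0.142% were higher and 0.00525% lower by the 2-fold criterion, none of them members. At an unadjusted p under 0.05, limma gave 1 of the 36 detected members beside 7.43% of all detected genes. It was Psmg1, with 7.35 and 7.32 in 4T1-TB against 7.14 and 7.02 in G-CSF. The log2 differences of the members ran from -0.47 for Psmb1 to 0.51 for Psmd1, with a median of 0.08, beside 0.00 over all detected genes. For 28 of the 36 (77.8%) the 95% interval lay within 2-fold in either direction, beside 88.1% of all detected genes, and for the others it reached past 2-fold. Psmb10, detected on all 6 arrays, differed by 0.06 (95% interval -0.26 to 0.39). Psmb8 and Psmb9 were not detected in 4T1-TB, and their intervals there say nothing of a difference. Psmb5, Psme2, Psmd6 and Psmd11 were each detected on at most 1 array of either group, so their intervals say little. All of these genes are counted among the 28. Leaving out either G-CSF array gave some member calls, but leaves a single array in that group. The share of all genes called in those fits is not at hand. These calls are therefore not read as a result about the members.

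Genes that work with the proteasome but carry no Psm symbol were read from short lists. Of 10 partner genes on the array 8 were detected, of which, by the brightest probe of each, 3 rose in 4T1-TB and 1 in G-CSF, and 0 fell. Of all detected genes 14% rose and 8.22% fell in 4T1-TB, and 10.7% rose and 7.39% fell in G-CSF. Pomp, the maturation factor of the core, had 10.21 and 10.003 in 4T1-TB, 9.66 and 10.05 in G-CSF and 8.64 and 8.85 in WT and rose by 1.36 and 1.11 (adjusted p = 0.0088 and 0.0178). Sem1, a small cap subunit, rose by 1.05 in 4T1-TB (adjusted p = 0.0344), and its 0.95 in G-CSF did not pass (adjusted p = 0.0527). The brightest probe of Uchl5, a deubiquitinase of the cap, was not detected in WT. On that probe Uchl5 rose at least 1.57-fold in 4T1-TB (adjusted p = 0.0211). In G-CSF it lay at least 1.26-fold above WT (adjusted p = 0.183). Of its 3 other detected probes 1 also rose in 4T1-TB (adjusted p = 0.0226), and their changes were 0.59, 0.45 and -0.15 in 4T1-TB and 0.38, 0.47 and -0.18 in G-CSF. Vcp, an unfoldase upstream of the proteasome, changed by 0.71 in 4T1-TB and 0.40 in G-CSF.

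Of the 6 genes on the array that govern proteasome transcription, Nfe2l1, which encodes Nrf1, the factor known to raise proteasome genes when proteasome capacity is short, had 9.68 and 9.45 in 4T1-TB, 9.72 and 9.28 in G-CSF and 7.67 and 7.53 in WT. It rose by 1.96 and 1.89 (adjusted p = 0.0032 and 0.0038), with no overlap with WT, and without WT replicate 2 the G-CSF call was lost by a small margin (0.0508). With median centring both Nfe2l1 calls were lost (adjusted p = 0.119 and 0.0900). Irf1, a regulator of the immunosubunit genes, had 10.39 and 11.12 in 4T1-TB, 10.74 and 10.48 in G-CSF and 11.33 and 11.31 in WT, on its brightest probe, whose differences of -0.56 and -0.71 did not pass (adjusted p = 0.383 and 0.265) and turned to 0.69 and 0.79 with median centring. On another Irf1 probe, detected on all 6 arrays, the values were 7.15 and 7.10 in 4T1-TB, 7.09 and 7.37 in G-CSF and 9.74 and 9.71 in WT, and it fell, with changes of -2.604 and -2.492 (adjusted p = 5.3e-04 and 5.9e-04). A further probe fell too, with -2.71 and -2.52 (adjusted p = 7.2e-04 and 9.2e-04), and the fourth changed by -2.07 and -1.53 without passing (adjusted p = 0.487 and 0.658). The Irf1 probes thus lay below WT in the mean, and 2 of 4 were called. Stat3, which signals downstream of the G-CSF receptor, changed by 0.42 and 0.56 on its brightest probe (adjusted p = 0.501 and 0.341) and by 0.0018 and 0.23 on a second. A Stat3 probe detected in WT only had 6.82 and 6.81 in 4T1-TB, 6.91 and 6.90 in G-CSF and 8.29 and 8.29 in WT and fell at least 2.37-fold in 4T1-TB and 2.39-fold in G-CSF (adjusted p = 4.2e-04 and 5.0e-04). The probes of Stat3 therefore gave no common direction.

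The calls of the partner genes were lost without WT replicate 1 (adjusted p of 0.0849 to 0.154 in 4T1-TB, and 0.139 for Pomp in G-CSF) and without WT replicate 2 (0.0631 to 0.238, and 0.0968). Without 4T1-TB replicate 1 those of Pomp and Uchl5 were lost in 4T1-TB (0.0804 and 0.151), and without 4T1-TB replicate 2 those of Pomp, Sem1 and Uchl5 (0.0536, 0.0673 and 0.147), and Pomp was lost in G-CSF without either 4T1-TB array (0.0510). With median centring all of these calls were lost (0.0823, 0.0908 and 0.219 for Pomp, Sem1 and Uchl5 in 4T1-TB, and 0.0649 for Pomp in G-CSF), and with neqc that of Sem1 (0.0649).

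Of 7 genes of class I antigen processing 6 were detected and none passed in either comparison. Tap1, a peptide transporter whose gene adjoins Psmb9, had 6.88 and 6.92 in 4T1-TB, 6.94 and 7.56 in G-CSF and 7.76 and 7.93 in WT. H2-K1, a class I heavy chain, had 7.07 and 7.04 in 4T1-TB, 6.89 and 8.69 in G-CSF and 9.27 and 9.31 in WT. Both lay below WT on all 4 arrays, with adjusted p of 0.0627 and 0.0974 in 4T1-TB and 0.256 and 0.307 in G-CSF. A second H2-K1 probe, detected on all 6 arrays, changed by 0.04 in 4T1-TB and -0.05 in G-CSF (adjusted p = 0.925 and 0.904). B2m and Tap2, detected on all 6 arrays, changed by 0.11 and 0.0033 in 4T1-TB and by 0.08 and 0.27 in G-CSF. A second B2m probe changed by -0.22 and -0.09. Tapbp and Ube2l6, dim on all arrays, changed by -0.39 and -0.41 in 4T1-TB and by -0.34 and -0.47 in G-CSF. The single gene of the ubiquitin list on the array, Uba6, changed by 0.27 and 0.24 (adjusted p = 0.147 and 0.211).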

How the data were processed

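RNA of splenic CD11b+Gr-1high cells of 4T1-TB, G-CSF-treated and WT mice was hybridized to 6 arrays. The authors deposited intensities per probe from GenomeStudio, whose version is not given in the sources used here, with a lowest value of 85.3 and 0 values at or below 0. The study's methods name a background subtraction in GenomeStudio. These intensities nevertheless keep a floor well above 0, with array medians of 117.2 to 126.9 while most probes were not detected. The change of dim probes is understated through this floor. A detection p-value from GenomeStudio was deposited beside each intensity by the authors. The deposited log2 values were made by the authors with lumi (log2) and quantile normalization, and were used as they stand. Log2 and quantile normalization of the intensities gave them to within 4.99e-09. The 2 intensity columns that bear a group name and no number were taken as the replicates numbered 1, the only ones left in their groups.

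Group means were fitted with limma 3.58.1 (R 4.3.3), over all 6 arrays with 3 contrasts, 3 residual and 2.59 prior degrees of freedom, and Benjamini-Hochberg adjustment over 45281 probes. The code was tested on simulated data. Probes were named from the annotation of the array, and all 49 member gene IDs matched a current symbol. A gene was represented by its probe with the highest mean log2 value. Where neither array of a group detected a probe, the fold is a lower bound, taken against each array's lowest detected signal if the probe itself was dimmer. The number of arrays limits the precision, and over detected probes the 95% interval reached 0.29 log2 units to either side in the median. No level was compared between probes of different genes outside the 3 catalytic pairs, of which only the change between groups was read. Named genes were the catalytic and PA28 genes, up to 4 per role with the smallest adjusted p, those of at least 2-fold with P under 0.01, and those whose probes differed. Members, lists and alternatives were chosen with earlier results of these data known. Alternatives were median centring, neqc (offset 16), own normalization, detected probes only, a replicate block, a fit of the 4 arrays in question, an eBayes prior with trend and robust, other probe choices, the 2-fold criterion, and leaving out each array. A filter on probes detected on all 6 arrays and another Psmb7 probe in its pair were added after seeing the data.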

Additional observations from a re-analysis of the deposited data

How the results depend on the processing

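Of the proteasome genes 12 rose and 2 fell in 4T1-TB against WT, and in G-CSF against WT 10 rose and 3 fell. Median centring gave 0 higher and 0 lower in each. With neqc 9 rose and 1 fell in 4T1-TB, and 7 rose and 1 fell in G-CSF. Over all probes the adjusted calls in either direction numbered 2486 in 4T1-TB and 2053 in G-CSF. They numbered 35 and 112 with median centring, and 1977 and 1759 with neqc. Such totals are not at hand for the settings that follow. Their member counts therefore do not show whether the members or the whole array moved. Fewer tests, on detected probes only, gave 4 lower in 4T1-TB, as did the probe with the smallest p. The replicate block gave 6 higher in G-CSF and 5 lower in 4T1-TB, a trended and robust prior 5 lower in each, and the 4 arrays compared alone 20 higher and 8 lower in 4T1-TB. Leaving out 1 array gave 2 to 20 higher and 1 to 8 lower in 4T1-TB, 2 to 17 higher and 1 to 9 lower in G-CSF, and 0 to 2 higher and 0 to 3 lower in 4T1-TB against G-CSF. Replicate numbers were not used as pairs. The deviations of same-numbered arrays correlated at -0.02 between 4T1-TB and WT, 0.02 between G-CSF and WT and 0.24 between 4T1-TB and G-CSF over 11527 probes, and under the replicate block the pair differences do not change. Psmb8 minus Psmb5 was -2.01 (4T1-TB) and -1.86 (G-CSF) with median centring, -4.08 and -3.80 with neqc, -1.41 and -1.17 with the mean of detected probes, and -3.07 to -2.41 and -2.91 to -2.25 without 1 array. Psmb10 minus Psmb7 was 4.23 and 4.23 with neqc, 1.12 and 0.96 with the mean of detected probes, and 2.65 to 3.57 and 1.96 to 3.98 without 1 array, and -0.49 and -0.53 with the Psmb7 probe of smallest p, chosen after seeing the data. Psmb9 minus Psmb6 was -0.89 and -0.94 with median centring, -0.73 and -0.34 with neqc, and -0.48 to -0.34 and -1.33 to 0.48 without 1 array. Between 4T1-TB and G-CSF the 3 pairs ran from -0.24 to -0.08, from -0.86 to 1.15 and from -0.89 to 0.92. With median centring the sign turned for Psmd1 (0.33 and 0.040), Psmb4 (1.13 and 1.23) and Irf1 (0.69 and 0.79) in both comparisons and for Psma4 (0.21) and Psmg3 (0.022) in G-CSF. In G-CSF it also turned for Psma4 (0.0026) and Psmb4 (0.71) without G-CSF replicate 1 and for Psmb6 (-0.23) without G-CSF replicate 2, where the ranges without 1 array were -1.31 to 0.0026, -1.29 to 0.71 and -0.23 to 1.54. The cause of these shifts was not tested. Low signal over background limits Psmb5, Psmb8, Psmb9, Psme2 and Psmg1, which were detected on 2 or 3 arrays.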
